A study of Mus musculus with 8 samples.

Results

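Overexpression of Zscan4c was compared with a vector control in J1 cells, a mouse embryonic stem (ES) cell line, over 4 of the 8 RNA sequencing libraries of the study, 2 in each group. The members were chosen by table and column: all 18292 genes and all 834 repeat names tabulated for the overexpression arm, in OE Zscan4 (2 libraries) against OE control (2 libraries). Both groups were wild type cells in medium with 15% serum and 10 ng/ml of the cytokine LIF. They were transfected with 1000 ng of pCMV-tag2, a plasmid with a viral promoter that is active in most cell types, with the Zscan4c coding sequence in OE Zscan4. G418 at 500 µg/ml was given from 24 h after transfection for 10 days, and single clones were picked. Whether the 2 libraries of a group are different clones or cultures is not in the labels, so p-values capture how far these libraries vary, which may be technical variation alone, and effects of a clone and of the transgene cannot be told apart. The other 4 libraries (KD control and KD Zscan4) carried a knockdown vector and are used only where named.

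Zscan4 genes encode nuclear proteins with a SCAN domain and zinc fingers. They are active in the 2-cell embryo and, in culture, in a small and changing fraction of ES cells that also expresses other 2-cell transcripts. In ES cells they are known for a role in telomere maintenance and genome stability. The genes lie as a cluster of near-identical copies, so short reads can be assigned to more than 1 copy.

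Sequences just upstream of 4 copies are shown because they let the likeness of the copies be seen outside the transcribed part. They do not measure how many reads the copies share. Each stretch of 160 bases is from the RefSeq promoter table (GRCm38.p6), lies before the annotated start, and is written 5′ to 3′ on the strand of its gene. Capitals mark bases that differ from Zscan4c, which were 1 in Zscan4f, 4 in Zscan4d and 7 in Zscan4b.
Zscan4c, chr7:11005506-11005665, plus strand: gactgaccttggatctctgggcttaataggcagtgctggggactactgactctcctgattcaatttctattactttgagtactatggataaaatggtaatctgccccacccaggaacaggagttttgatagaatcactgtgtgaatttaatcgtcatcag
Zscan4f, chr7:11397699-11397858, plus strand: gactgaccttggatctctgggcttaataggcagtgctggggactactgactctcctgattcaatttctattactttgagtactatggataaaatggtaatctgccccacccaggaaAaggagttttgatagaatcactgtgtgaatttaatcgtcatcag
Zscan4d, chr7:11166239-11166398, minus strand: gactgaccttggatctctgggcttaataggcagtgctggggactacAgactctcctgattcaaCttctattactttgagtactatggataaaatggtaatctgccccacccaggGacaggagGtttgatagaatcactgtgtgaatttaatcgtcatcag
Zscan4b, chr7:10905107-10905266, minus strand: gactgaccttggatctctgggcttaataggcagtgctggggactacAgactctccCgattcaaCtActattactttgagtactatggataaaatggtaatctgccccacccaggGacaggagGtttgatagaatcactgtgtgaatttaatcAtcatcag

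The targeted gene followed the labels. Levels here are the authors' normalised read counts, and each fold change is a difference of log2(value + 1), OE Zscan4 minus OE control. The added 1 shrinks the change of genes with few reads. Zscan4c was at 60.1 and 75.2 in OE control and 1074 and 981 in OE Zscan4, so the groups did not overlap (log2 fold change 3.91, SE 0.13, adjusted p = 6.3e-13). Summed over the 9 measured copies, the family stood at 360.4 and 389 in OE control and at 5878 and 5311 in OE Zscan4 (log2 fold change 3.90, SE 0.08, limma). Copies that the plasmid did not carry rose as well, Zscan4d by 3.66 and the pseudogene Zscan4-ps3 by 4.59, with the caveat that copies share reads.

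The gene reads per library were 17.98 to 22.38 M in these 4 libraries, and libraries of 1 group differed by more than counting noise (chi-square per degree of freedom 4.71 in OE control and 3.06 in OE Zscan4). Calls rest on limma at a false discovery rate of 0.05 over all genes. Of 18292 genes, 8111 passed (44.3%), 4072 upward (22.3%) and 4039 downward (22.1%), so a single call is common here and each list below is read against these shares. The median over all genes was 0.00. At least 2-fold rises were called for 588 genes (3.21%) and at least 2-fold falls for 1259 (6.88%). The groups did not overlap for 71.2% of genes.

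The OE control libraries stood apart from the other 3 groups in the share of reads on chromosome 11. Over the 17409 genes of both arms, chromosome 11 held 11.34% and 11.33% of gene reads in OE control, against 9.33% and 9.30% in OE Zscan4, 9.75% and 9.83% in KD control and 9.58% and 9.53% in KD Zscan4. OE control was the highest of the 4 groups. Fold changes of chromosome 11 genes are therefore given as fitted and after the chromosome's median shift in each library (-0.33 in both OE Zscan4 libraries) was removed.

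The ES cell label was checked against ES cell identity genes, all of which had reads. Of the measured members, 14 of 20 rose and 1 fell, with a median log2 fold change of 0.51. Their summed level was 148018 and 145143 in OE control and 196888 and 195992 in OE Zscan4. Zfp42, which encodes the pluripotency marker Rex1, was at 13701 and 13541 in OE control and 28065 and 29719 in OE Zscan4 (log2 fold change 1.08, SE 0.07, adjusted p = 2.7e-09). Nr0b1, which encodes the nuclear receptor Dax1, was at 901 and 836 in OE control and 2012 and 2004 in OE Zscan4 (log2 fold change 1.21, SE 0.07, adjusted p = 1.1e-09). Both genes were about 2 times higher in each OE Zscan4 library than in either OE control library. OE control was also below both knockdown groups for these genes, as given further below. Gdf3, a growth factor gene of the TGF-beta family (0.97), and Klf4, a reprogramming factor gene (0.84), rose too, as did Sall4 (0.80), Klf5 (0.73), Pou5f1 (0.53) and Nanog (0.48). The list's single fall was Tfcp2l1 (-0.41), a transcription factor gene of naive cells.

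Genes of extraembryonic lineages were lower. Of 17 measured primitive endoderm markers, 12 fell and none rose, with a median of -0.76 (from -0.80 to -0.65 with 1 library left out). With DESeq2 only 8 fell and none rose, and 1 rose with a pseudocount of 10 or with the replicate number as a block. The summed level of these markers was 8849 and 8509 in OE control and 6178 and 6163 in OE Zscan4. In bulk RNA, fewer cells of a type and less RNA per cell cannot be told apart. Hnf4a, a nuclear receptor gene of visceral endoderm, was at 114 and 129 in OE control and 55.3 and 28.2 in OE Zscan4 (log2 fold change -1.59, SE 0.26, adjusted p = 7.7e-05). Cubn, an endocytic receptor gene, was at 114 and 122.6 in OE control and 44.7 and 47.0 in OE Zscan4 (log2 fold change -1.35, SE 0.19, adjusted p = 2.4e-05), and Srgn, which encodes the proteoglycan serglycin, fell by 1.33 on the log2 scale. The groups did not overlap for any of these 3 genes, which holds for 71.2% of all genes. Gata6 (-0.97) also passed, but its call was lost without OE control replicate 2 (-0.73), without OE Zscan4 replicate 2 (-0.77) and with DESeq2. Of 10 trophectoderm markers 5 fell and 1 rose (none with DESeq2 or without OE Zscan4 replicate 2), among them the keratin gene Krt7 (-1.60), Ascl2 (-0.91), a factor gene of placental precursors, and Tead4 (-0.69). Their summed level was 3380.3 and 3098 in OE control and 2639.9 and 2695 in OE Zscan4.

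Other lineage markers moved in both directions. Of 11 mesoderm markers 4 fell and none rose (1 fell with DESeq2, and fewer than 4 also without OE Zscan4 replicate 2). Mesp1, a cardiac mesoderm factor gene, was at 13.3 and 19.6 in OE control and 2.13 and 1.88 in OE Zscan4 (log2 fold change -2.52, SE 0.56, adjusted p = 0.0014). Its call held in every setting that included it. The setting with a mean of at least 20 left it out, and its level in OE Zscan4 rests on few reads. The calls of Tbx6, Mesp2 and Pdgfra were lost with DESeq2, and Tbx6 also without OE control replicate 2 (-1.16), Mesp2 without OE Zscan4 replicate 2 (-0.48) and Pdgfra without either of these libraries (-0.71 and -0.68). Of 7 neural ectoderm markers, Pax6, an eye and forebrain factor gene (1.72), the neuronal tubulin gene Tubb3 (1.10) and the adhesion gene Ncam1 (0.90) were among 4 that rose, while Map2 (-0.87) was among 2 that fell. Of 10 fibroblast markers, 2 rose and 4 fell (1 rose with DESeq2, without OE control replicate 1 or without OE Zscan4 replicate 2), with Pdgfrb, a growth factor receptor gene, at 284 and 325 in OE control and 91.4 and 63.9 in OE Zscan4 and Fbn1, a microfibril gene, rising by 1.14. The summed levels of these lists were 378 and 380.1 in OE control and 279 and 249 in OE Zscan4 for mesoderm, 3326 and 3142 in OE control and 5826 and 5701 in OE Zscan4 for neural ectoderm and 1083 and 1101 in OE control and 675 and 645 in OE Zscan4 for fibroblasts. Their part in the other results was not tested.

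**Figure D1:**
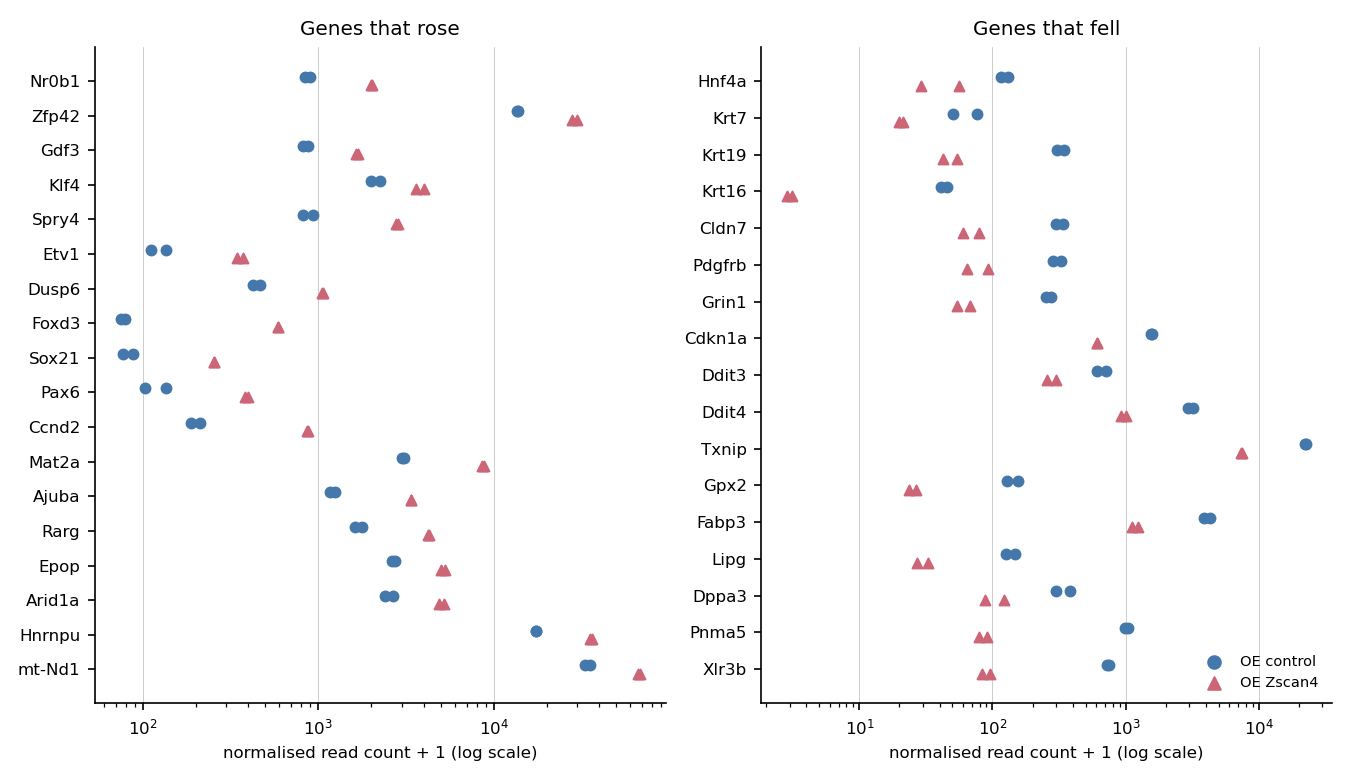
Normalised read counts plus 1, on a log axis, of 18 genes that rose (left) and 17 that fell (right), with 1 point per library: circles for the 2 OE control libraries and triangles for the 2 OE Zscan4 libraries. In every gene drawn the circles and triangles do not overlap, which holds for 71.2% of all 18292 genes. Txnip, for example, lies at 22374 or above in OE control and at 7431 or below in OE Zscan4.

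FGF signalling through ERK drives ES cells towards differentiation and switches on its own feedback inhibitors. Of 28 measured genes of this pathway 15 rose and 3 fell, with a median of 0.30, which was 0.49 after centring of chromosome 11 and 0.48 without it. Spry4, a feedback inhibitor gene of receptor tyrosine kinases, was at 815 and 935 in OE control and 2831 and 2759 in OE Zscan4 (log2 fold change 1.68, SE 0.08, adjusted p = 2.7e-11). Dusp6, which encodes an ERK phosphatase, was at 421 and 465 in OE control and 1045 and 1064 in OE Zscan4 (log2 fold change 1.25, SE 0.08, adjusted p = 4.8e-09). Etv1, an ETS factor gene downstream of FGF, was at 111 and 133.9 in OE control and 372 and 344 in OE Zscan4 (log2 fold change 1.55, SE 0.13, adjusted p = 7.1e-08). In all 3 the OE Zscan4 libraries were at least 2 times as high as the OE control libraries. Spred3 (1.26), Spry2 (0.86), Egr1 (0.79) and Etv5 (0.70) rose as well.

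Notch signalling passes between neighbouring cells through Delta and Jagged ligands. Here 10 of 22 genes fell and 2 rose, with a median of -0.40. The rises were 1 with DESeq2, without OE control replicate 1 and without OE Zscan4 replicate 1, and 4 without OE control replicate 2 and after centring of chromosome 11. The ligand gene Dll1 was at 84.9 and 87.6 in OE control and 25.5 and 20.7 in OE Zscan4 (log2 fold change -1.86, SE 0.25, adjusted p = 1.0e-05), and the target gene Hey1 (-1.03) and the receptor gene Notch1 (-0.71) fell. Rbpj, which encodes the DNA-binding partner of the Notch receptor, rose by 0.81. The summed level of the 22 genes was 11217 and 11488 in OE control and 13566 and 13079.5 in OE Zscan4. It was thus higher in OE Zscan4, although more genes fell than rose. Single genes of other pathways changed with no common direction in their lists. The retinoic acid receptor gene Rarg rose (1620.1 and 1781 in OE control and 4238 and 4289 in OE Zscan4, log2 fold change 1.33, SE 0.07, adjusted p = 1.5e-10) while the retinoid-binding protein gene Crabp2 fell (-1.55), in a list of 18 with 4 rises and 5 falls. Ajuba, a LIM protein gene of the Hippo pathway, rose (1253 and 1173 in OE control and 3382 and 3364 in OE Zscan4, log2 fold change 1.48, SE 0.07, adjusted p = 3.2e-11), with 8 rises and 5 falls among 24. Without OE Zscan4 replicate 2 the Hippo list had 5 and 3, and its falls were also 3 with DESeq2 and without OE control replicate 2. Gli1, a target gene of Hedgehog, rose by 0.82, with 9 rises and 9 falls among 27. Outside chromosome 11, 9 genes of the Hedgehog list rose and 6 fell. Without OE Zscan4 replicate 1 the Hedgehog list had 5 of each.

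Transcription factor families changed gene by gene. Foxd3, a forkhead factor gene of pluripotent and neural crest cells, was at 78.2 and 74.2 in OE control and 587 and 591 in OE Zscan4 (log2 fold change 2.93, SE 0.12, adjusted p = 8.9e-12). Sox21 rose from 76.3 and 87.6 to 254 and 253 (log2 fold change 1.62, SE 0.15, adjusted p = 1.4e-07), and Gata1, a blood factor gene, fell by 1.53. In all, 15 of 56 Fox, Sox, Gata and T-box genes rose and 15 fell, and 7 fell with DESeq2. Of 15 Hox genes, which set position along the body axis, 4 rose and none fell. Hoxa7 was at 0.954 and 5.15 in OE control and 31.9 and 28.2 in OE Zscan4 (log2 fold change 3.16, SE 0.55, adjusted p = 1.6e-04), while the calls of Hoxa3 (2.28), Hoxa10 (2.08) and Hoxa11 (1.87) were lost with DESeq2. Hoxa3 was also lost without OE control replicate 1 (0.86) and without either OE Zscan4 library (2.20 and 2.36), and Hoxa11 without OE Zscan4 replicate 2 (1.31). Of the 15 Hox genes 5 had a mean of at least 20, and none of these 5 was called when genes below that level were left out.

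Of 35 subunits of remodelling complexes, 15 rose and 1 fell (none among the 31 outside chromosome 11), with a median of 0.15, which was 0.25 after centring of chromosome 11 and 0.23 without it. Arid1a, a BAF complex subunit gene, was at 2405 and 2678 in OE control and 5209.7 and 4904 in OE Zscan4 (log2 fold change 0.99, SE 0.07, adjusted p = 8.5e-09), with Dpf1 (0.89), Ino80 (0.74) and Arid1b (0.71) also higher. Polycomb subunits, which silence developmental genes, rose in 17 of 33 cases and fell in 7, with a median of 0.25. Among the 26 outside chromosome 11, 16 rose and 3 fell. Epop, a chromosome 11 gene whose product binds polycomb complex 2, was at 2753 and 2647 in OE control and 5277 and 5029 in OE Zscan4 (log2 fold change 0.93, SE 0.07, adjusted p = 7.3e-09, and 1.26 after centring of the chromosome). Ezh1, which encodes a histone methyltransferase and lies on that chromosome as well, fell by 1.28 (-0.95 after centring). Cbx8 (-1.14), also there, did not pass after centring (-0.81), with DESeq2, or without OE control replicate 2 (-0.84) or OE Zscan4 replicate 1 (-1.07).

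In the cell cycle list, 13 of 35 genes rose and 12 fell, and the D-type cyclin gene Ccnd2 rose (187 and 212 in OE control and 864 and 874 in OE Zscan4, log2 fold change 2.12, SE 0.10, adjusted p = 3.3e-11). Cdkn1a, which encodes the cell cycle inhibitor p21, was at 1583 and 1539.9 in OE control and 610.3 and 613 in OE Zscan4 (log2 fold change -1.35, SE 0.07, adjusted p = 3.6e-10), and the inhibitor gene Cdkn2c fell by 1.43. The OE control libraries were thus above OE Zscan4 for both inhibitors. Ddit4, an inhibitor gene of mTOR, was at 3226 and 2939.8 in OE control and 919 and 1007 in OE Zscan4 (log2 fold change -1.68, SE 0.08, adjusted p = 2.6e-11), and Ddit3, which encodes CHOP, fell by 1.25. Atf4, the factor gene upstream of CHOP, rose by 0.58. Of 28 unfolded protein response genes, 8 rose and 7 fell, and the rises were 3 without OE Zscan4 replicate 1, 5 without replicate 2 and 5 without OE control replicate 2. Txnip, whose product binds thioredoxin and limits glucose uptake, was at 22689.9 and 22374 in OE control and 7385 and 7431 in OE Zscan4 (log2 fold change -1.60, SE 0.07, adjusted p = 8.7e-12).

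The 10 called genes with the largest difference in mean level all rose. Mitochondrially encoded mt-Nd1, a subunit of respiratory complex I, was at 33199.9 and 35449 in OE control and 66552 and 67799.7 in OE Zscan4 (log2 fold change 0.97, SE 0.08, adjusted p = 4.6e-08), and mt-Cytb rose by 0.96, but of 34 mitochondrial genes 11 rose and 7 fell. Hnrnpu, an RNA-binding nuclear scaffold gene, was at 17305 and 17447 in OE control and 35406 and 36398 in OE Zscan4 (log2 fold change 1.05, SE 0.07, adjusted p = 4.9e-09). Ncl (0.68), Trim28 (0.80), Set (0.68) and Hspd1 (0.78) kept their calls in every setting. The calls of Hspa8 (0.42), Hsp90aa1 (0.40) and Ptma (0.40) were lost without OE Zscan4 replicate 1 (0.47, 0.44 and 0.39) and without replicate 2 (0.37, 0.35 and 0.41). Chaperone genes as a list rose in 31 of 83 cases and fell in 15, with Hsph1 at 1981 and 1935 in OE control and 4506 and 4451 in OE Zscan4. Without OE Zscan4 replicate 1 the rises were 18, and without replicate 2 they were 16, and the falls were 9 with DESeq2 and without OE Zscan4 replicate 1.

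Of 33 nucleotide synthesis genes 17 rose and 5 fell (median 0.22), and 11 rose and 3 fell without OE Zscan4 replicate 1, and 2 fell without replicate 2. Of 32 serine, one-carbon and folate genes 13 rose and 5 fell (median 0.12), with 3 falls with DESeq2 and without OE Zscan4 replicate 1 and 2 without replicate 2. Mat2a, which makes S-adenosylmethionine, the methyl donor of the cell, was at 3013 and 3069.5 in OE control and 8856 and 8529.6 in OE Zscan4 (log2 fold change 1.51, SE 0.06, adjusted p = 1.2e-11). Tyms, which makes thymidylate, rose by 0.91, while Aldh1l1, a folate enzyme gene, fell by 1.58.

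Lipid transport and apolipoprotein genes fell in 31 of 55 cases and rose in 5 (median -0.42). The rises were 2 among genes with a mean of at least 20, and 3 with DESeq2, without OE control replicate 2 and without either OE Zscan4 library. Fabp3, a fatty acid binding protein gene, was at 4298 and 3910.1 in OE control and 1115 and 1236 in OE Zscan4 (log2 fold change -1.80, SE 0.07, adjusted p = 8.7e-12), and Lipg, the endothelial lipase gene, fell by 2.19. Fatty acid oxidation genes fell in 14 of 31 cases and rose in 5 (8 without OE control replicate 1), with Pdk4, a brake on pyruvate oxidation, at -1.72. Lysosome and autophagy genes fell in 21 of 41 cases and rose in 3 (median -0.21), among them the protease gene Ctsc (-1.26), the sialidase gene Neu1 (-1.02) and the membrane protein gene Lamp2 (-1.01). Outside chromosome 11, 17 genes of this list fell and 3 rose (median -0.17). Gpx2, a glutathione peroxidase gene, was at 154 and 128 in OE control and 25.5 and 22.5 in OE Zscan4 (log2 fold change -2.50, SE 0.22, adjusted p = 1.1e-07). Its list, the NRF2 stress response and glutathione genes, did not share this direction: of 40 genes 14 rose and 12 fell (median 0.05). For Fabp3 and Gpx2 both OE Zscan4 libraries lay far below OE control.

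Of 44 complement and immune surface genes 22 fell and none rose (median -0.46), with the adhesion molecule gene Cd2 at 47.7 and 33.0 in OE control and 9.57 and 5.64 in OE Zscan4 (log2 fold change -2.28, SE 0.39, adjusted p = 1.4e-04) and the complement gene C3 at -1.96. Ion channel genes fell in 46 of 132 cases and rose in 9 (median -0.33), and with DESeq2 27 fell. Chromosome 11 held 16 of the 132 genes, and outside it 37 fell and 9 rose (median -0.24). Grin1, an NMDA receptor subunit gene, was at 275 and 253 in OE control and 53.2 and 66.7 in OE Zscan4 (log2 fold change -2.13, SE 0.16, adjusted p = 1.9e-08). Solute carriers, the largest transporter family, fell in 94 of 273 cases and rose in 43 (median -0.18), with Slc22a18 at -2.19. Chromosome 11 held 29 of the 273 genes, and outside it 77 fell and 42 rose (median -0.12). The summed level of solute carriers was 203954 and 198824 in OE control and 214511 and 211127 in OE Zscan4. With DESeq2 62 solute carriers fell.

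Adhesion and junction lists did not share a direction. Of 33 cadherins and protocadherins 8 rose and 1 fell (median 0.34), but 1 rose with DESeq2 and without OE Zscan4 replicate 1, 2 without OE Zscan4 replicate 2, and 3 and 5 without OE control replicate 1 and 2. Of 13 connexins and pannexins 1 rose and 2 fell, and over the alternatives 0 to 2 rose and 2 to 4 fell, the most falls being without OE Zscan4 replicate 1. In the claudin and tight junction list 10 of 21 fell and 4 rose (median -0.44), and of 9 measured claudins 8 fell and none rose. Cldn7, on chromosome 11, was at 338 and 299 in OE control and 78.7 and 59.2 in OE Zscan4 (log2 fold change -2.20, SE 0.16, adjusted p = 1.1e-08, and -1.87 after centring), and Cldn18, on chromosome 9, fell by 2.27. Keratin genes fell on chromosome 11 and elsewhere: Krt19 was at 344 and 305 in OE control and 41.5 and 53.6 in OE Zscan4 (log2 fold change -2.76, SE 0.17, adjusted p = 1.1e-09, and -2.42 after centring), Krt16 fell by 3.85 (-3.51 after centring), and Krt7 is given above. In the list of keratins and other intermediate filaments, 13 of 31 fell and 6 rose, with a median of -0.40, which was -0.25 after centring of chromosome 11. Among the 18 outside chromosome 11, 7 fell and 5 rose, with a median of -0.24. The summed level of all 31 genes was 17366 and 17044 in OE control and 21570 and 21082 in OE Zscan4.

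Germline lists differed among themselves. Of 7 Prame family genes 1 rose and 2 fell (median 0.30), of 12 Mage family genes 1 rose and 2 fell (median -0.07), and of 14 testis-expressed genes 2 rose and 4 fell (median -0.08). Over the alternatives, leaving out each library included, these counts ranged from 0 to 3 rises and 0 to 5 falls. Of 19 oocyte genes 9 fell and 2 rose (median -0.61), and 1 rose without OE Zscan4 replicate 1. Dppa3, which encodes the maternal factor Stella, was at 382 and 299.7 in OE control and 87.2 and 120.3 in OE Zscan4 (log2 fold change -1.72, SE 0.16, adjusted p = 2.2e-07), and Padi6 (-1.71) and Khdc3 (-1.14), which act in the oocyte's subcortical complex, fell. Of 20 genes of the piRNA pathway, which silences transposons in germ cells, 9 fell and none rose (1 rose without OE control replicate 2), with Pld6 at -1.27 (-0.94 after centring of chromosome 11) and Tdrd7 at -1.21.

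**Figure D2:**
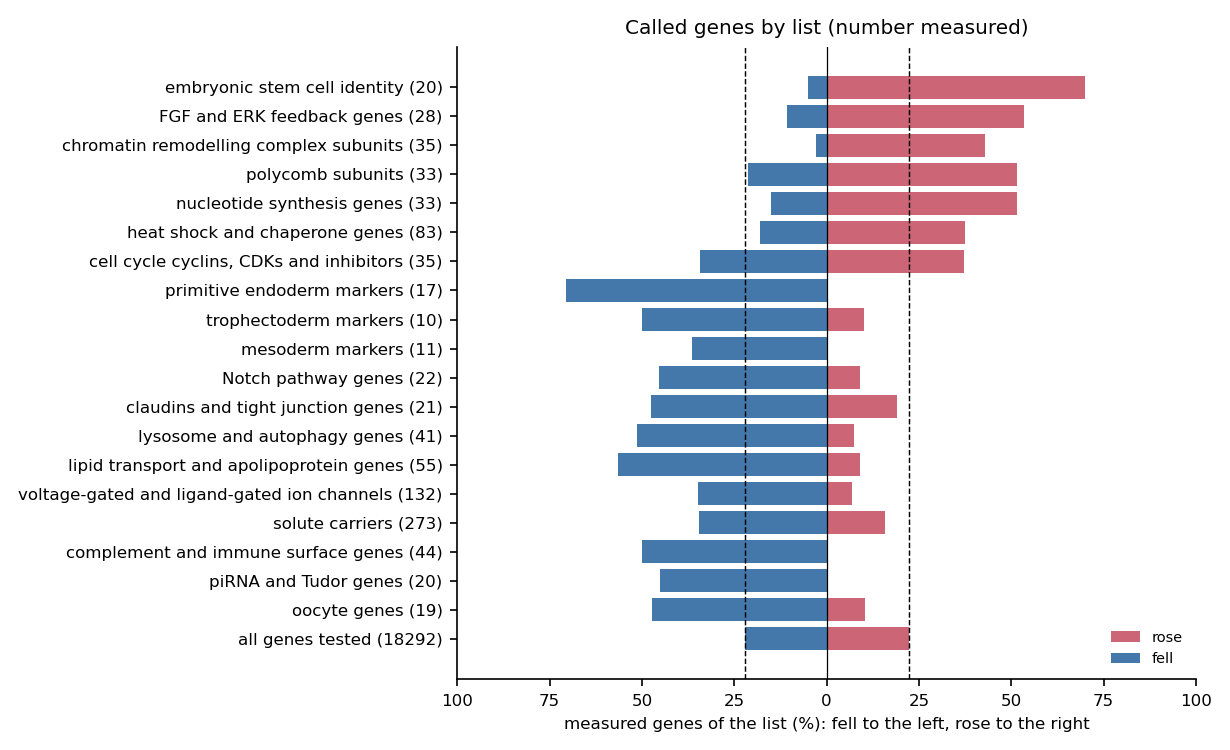
Share of measured genes that fell (bars to the left) or rose (bars to the right) at a false discovery rate of 0.05, for 19 gene lists and for all genes, with the number measured in brackets. Dashed lines mark the shares over all genes, 22.1% fell and 22.3% rose, and the bars of ES cell identity and of primitive endoderm markers reach furthest beyond them on either side, at 70.0% and 70.6%.

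The largest rises were in multicopy genes of 2-cell embryos. Below the 10 largest came Gm14742, an X-linked gene with 2 reads in OE control and 61 in OE Zscan4 (ratio 30.7, 95% counting interval 8.15 to 259), then Gm21304, Gm21293, Gm4340, Gm5662 and Gm8332. Gm21293 was at 6.67 and 5.15 in OE control and 102 and 95.8 in OE Zscan4 and Gm8332 at 21.9 and 26.8 in OE control and 360.4 and 320.4 in OE Zscan4 (log2 fold change 3.76, SE 0.18, adjusted p = 6.0e-11). A lack of overlap between the groups was a condition of this ranking, so it is no result about these genes. Copies of such families share reads. Abcb5, which encodes an ABC transporter, was among the 10 largest, with 2 reads in OE control and 54 in OE Zscan4 (ratio 27.2, 95% counting interval 7.17 to 230). Of 37 measured 2-cell genes 33 rose and none fell. Pramef25 (2.91) and Tcstv3 (2.84) were among those that rose.

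Several of these genes lay side by side. A run was defined as at least 4 consecutive measured genes, each called in 1 direction with at least a 2-fold change, and 20 runs were found, 12 upward and 8 downward. The longest was on chromosome 12 from 87480108 to 88324026, where 17 genes from Gm18983 to Gm5039 rose with a median of 3.37. On chromosome 7 from 50940546 to 51176537, 8 genes from Gm9343 to Gm16478 rose (median 2.97), of which Gm21035 lost its call without OE Zscan4 replicate 2 (2.74). The genes of this run from Gm9343 to Gm21036 had few reads in OE control. Each was at 0.111 CPM (reads scaled to a common total of gene reads) or below there. Gm16478 had more reads, with normalised counts of 18.1 and 26.8 in OE control and 385 and 335 in OE Zscan4. On chromosome 10, 7 genes from Gm21293 to Gm4340 (104142987 to 104196522, median 3.72) and 8 genes from Gm4301 to Gm4312 (100335676 to 100382560, median 2.93) rose. Genes of the latter run had at most 2 reads each over both OE control libraries, and the calls of Gm4301 and Gm4305 were lost with DESeq2, that of Gm4301 also without OE Zscan4 replicate 2 (2.25) and that of Gm4305 without replicate 1 (2.25). On chromosome 6 from 50573302 to 50628339, Gm4782, Gm8038 and Gm18765 rose with their neighbour 4921507P07Rik, and Gm8038 was at 100.1 and 103 in OE control and 818 and 724 in OE Zscan4 (log2 fold change 2.91, SE 0.11, adjusted p = 4.3e-12). With a pseudocount of 10 or with DESeq2, 12 runs met the criterion in each case.

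On chromosome 4, 3 runs held zinc finger genes of the KRAB type, a class whose proteins recruit Trim28 to transposons. Zfp987 rose from 57.2 and 89.6 to 183 and 183 (log2 fold change 1.34, SE 0.19, adjusted p = 2.3e-05). Zfp979 was at 444 and 773 in OE control and 1266 and 1189 in OE Zscan4 (log2 fold change 1.07, SE 0.16, adjusted p = 3.1e-05), so both OE Zscan4 libraries lay above OE control although the OE control libraries differed widely. Zfp988 (1.34), Zfp534 (1.27) and Gm13147 (1.27) rose too. The calls of Zfp600 and Zfp985 were lost with DESeq2, and that of Zfp986 with DESeq2, without OE control replicate 1 (0.84) and without OE Zscan4 replicate 1 (1.15). Near-identical copies in this region may share reads.

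Of the 10 largest falls 9 were of genes on the sex chromosomes. On chromosome Y, 5 of 8 genes fell: the translation factor gene Eif2s3y was at 1085 and 1019.8 in OE control and 3.19 and 13.2 in OE Zscan4 (log2 fold change -7.10, SE 0.35, adjusted p = 6.1e-11), the helicase gene Ddx3y at 238 and 338 in OE control and 2.13 and 4.70 in OE Zscan4 and the demethylase gene Uty at 209.8 and 244 in OE control and 5.32 and 0.939 in OE Zscan4. Uba1y had 148 reads in OE control and 3 in OE Zscan4 (ratio 0.0204, 95% counting interval 0.00416 to 0.0608), and Gm2098 had 59 and 1 (ratio 0.0171, 95% counting interval 0.000425 to 0.0989). J1 is a male line, and both OE Zscan4 libraries were near 0 for these genes.

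On chromosome X from 73064787 to 73292976, 9 neighbours from Pnma3 to Xlr4b fell with a median of -3.35. The Xlr genes are X-linked lymphocyte-regulated multicopy genes, and 11 of 12 measured members fell while Xlr3d-ps did not pass. Xlr5a was at 493 and 488 in OE control and 26.6 and 25.4 in OE Zscan4 (log2 fold change -4.19, SE 0.16, adjusted p = 3.6e-12), Xlr3c at 557 and 586 in OE control and 7.44 and 6.58 in OE Zscan4 and Xlr4c at 154 and 169 in OE control and 7.44 and 16.9 in OE Zscan4. Pnma5, of the paraneoplastic antigen family, was at 991 and 1038 in OE control and 77.6 and 90.2 in OE Zscan4 (log2 fold change -3.58, SE 0.11, adjusted p = 6.3e-13). Chromosome X as a whole had a median of 0.07 over 498 genes with a mean of at least 20, unlike this cluster.

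The falls ranked 11 to 20 also held autosomal genes of unlike function. Micall2, which encodes a regulator of junction trafficking, was at 132 and 112 in OE control and 6.38 and 15.03 in OE Zscan4 (log2 fold change -3.49, SE 0.33, adjusted p = 2.4e-07). Mt4, a metallothionein gene of squamous epithelium, had 84 reads in OE control and 3 in OE Zscan4 (ratio 0.036, 95% counting interval 0.00727 to 0.109), and the complement gene C8b had 50 and 1 (ratio 0.0201, 95% counting interval 0.0005 to 0.118). Mgl2, a lectin gene on chromosome 11 and the autosomal gene among the 10 largest falls, had 64 reads in OE control and 0 in OE Zscan4, at least 21.2-fold lower against a floor of 3 reads over the group.

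Chromosome 11 was shifted along its length. Its 1204 genes with a mean of at least 20 had a median of -0.33 (quartiles -0.67 and -0.06), a fold of 0.797, and 79.5% were negative, while every other autosome had a median from -0.03 to 0.10. All 13 windows of 10 Mb were negative, from -0.42 to -0.10, the weakest holding 14 genes. Of its 1463 genes, 733 fell (50.1%) and 104 rose (7.11%), against 19.6% and 23.6% on other chromosomes. After centring, 693 of them passed (47.4%), of which 364 fell (24.9%) and 329 rose (22.5%), and 468 of the 837 first called kept their direction and call. Without chromosome 11, 7245 of 16829 genes passed, 3946 upward and 3299 downward, so 54.5% of calls were rises, against 50.2% with it.

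Some chromosome 11 genes stood far from the shift. Below it, besides Krt16 and Mgl2, lay Cd7, a T cell surface gene, at 28.6 and 37.1 in OE control and 2.13 and 1.88 in OE Zscan4 (log2 fold change -3.48, SE 0.48, adjusted p = 1.7e-05, and -3.15 after centring). Adam19, a membrane protease gene, was at 1900.4 and 1864 in OE control and 595 and 536 in OE Zscan4 (log2 fold change -1.74, SE 0.08, adjusted p = 2.6e-11, and -1.40 after centring). Igfbp4, which binds insulin-like growth factors, fell by 1.69 (-1.36 after centring). Above the shift, 4 neighbours from 94777217 to 94828930 rose against the direction of their chromosome: Tmem92 was at 21.0 and 14.4 in OE control and 87.2 and 86.4 in OE Zscan4 (log2 fold change 2.25, SE 0.27, adjusted p = 3.6e-06, and 2.59 after centring), Gm11543 rose by 2.77 (3.11 after centring), AA623943 had 3 reads in OE control and 99 in OE Zscan4 (ratio 33.2, 95% counting interval 11 to 164), and Gm11546 passed (2.25, and 2.59 after centring) but was lost without OE Zscan4 replicate 2 (1.73).

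A shorter stretch of chromosome 1 had a shift of like size. Between 150 and 180 Mb, 109 genes fell (46.2%) and 20 rose (8.47%), with a median of -0.32 over 182 genes with a mean of at least 20, while on the rest of the chromosome 163 of 853 fell (19.1%) and 209 rose (24.5%), with a median of 0.04. This stretch was singled out after its values were seen. It held 1.40% and 1.45% of gene reads in OE control, 1.24% and 1.23% in OE Zscan4, 0.924% and 0.929% in KD control and 1.18% and 1.23% in KD Zscan4. KD control, lowest here, was also lowest on the rest of chromosome 1 (4.66% and 4.64%, against 6.34% to 6.94% in the other 6 libraries).

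**Figure D3:**
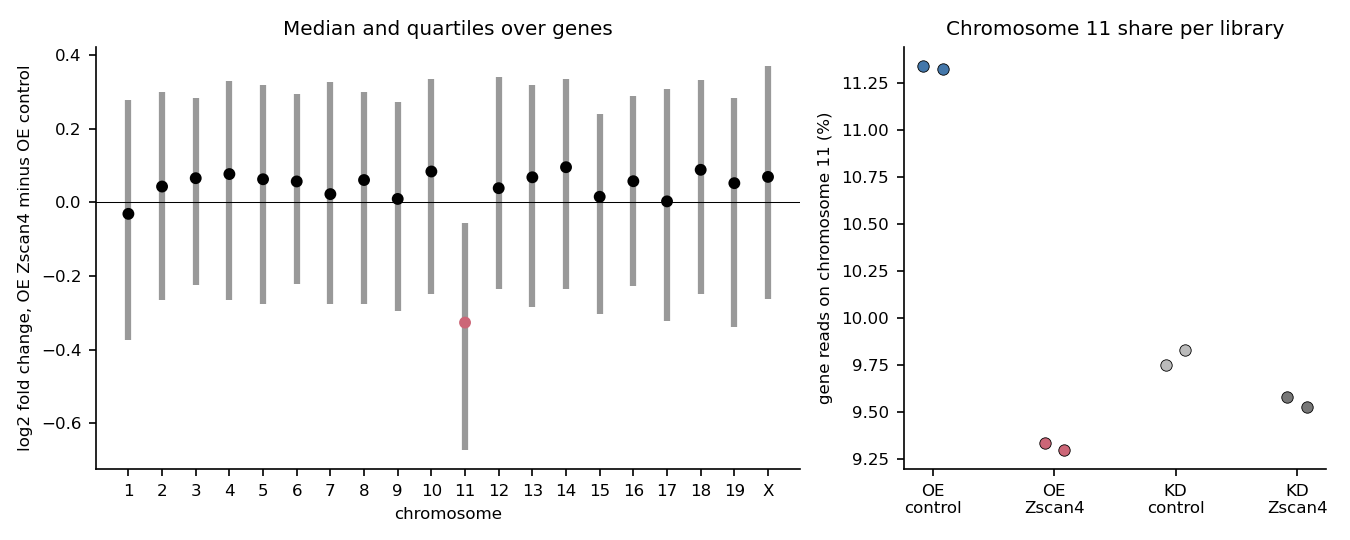
Left, median (point) and quartiles (bar) of the log2 fold change of genes with a mean of at least 20, by chromosome, OE Zscan4 minus OE control, with chromosome 11 in red. Right, share of gene reads on chromosome 11 in each of the 8 libraries, on an axis that does not start at 0: chromosome 11 is lowest on the left at -0.33, and OE control is highest on the right at 11.34% and 11.33%.

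Levels in the 4 knockdown libraries are given beside those of the overexpression arm because OE control stood apart from both knockdown groups for many of the genes named. The arms differ in vector and drug, were normalised separately, and are compared here only as gene CPM (reads scaled to a common total of gene reads), with no test. Zscan4c was at 3.10 and 4.06 CPM in OE control, 51.8 and 46.6 in OE Zscan4, 29.5 and 29.0 in KD control and 0.562 and 0.801 in KD Zscan4. Spry4 was at 42.1 and 50.5 CPM in OE control, 137 and 131 in OE Zscan4, 229 and 238 in KD control and 112 and 116 in KD Zscan4. For Spry4, OE control was the lowest of the 4 groups. Foxd3 showed the same order of OE control below the rest, at 4.03 and 4.004 CPM in OE control, 28.3 and 28.1 in OE Zscan4, 44.7 and 49.7 in KD control and 34.1 and 33.6 in KD Zscan4. Zfp42 was at 707 and 731 CPM in OE control, 1354 and 1413 in OE Zscan4, 1021 and 1032 in KD control and 1220 and 1248.5 in KD Zscan4. Nr0b1 was at 46.5 and 45.2 CPM in OE control, 97.1 and 95.3 in OE Zscan4, 154 and 155 in KD control and 89.6 and 84.9 in KD Zscan4. For both, and for Gdf3 and Klf4, OE control was again the lowest of the 4 groups. Txnip was at 1171 and 1208 CPM in OE control, 356 and 353 in OE Zscan4, 386 and 377 in KD control and 279 and 276 in KD Zscan4, with OE control highest. Krt19 was at 17.8 and 16.5 CPM in OE control, 2.00 and 2.55 in OE Zscan4, 3.77 and 3.79 in KD control and 4.09 and 3.40 in KD Zscan4, again with OE control highest. Xlr3a was highest in OE control, at 86.4 and 89.7 CPM in OE control, 29.6 and 32.1 in OE Zscan4, 0.0919 and 0.115 in KD control and 6.34 and 6.71 in KD Zscan4. Cdkn1a was at 81.7 and 83.1 CPM in OE control, 29.4 and 29.1 in OE Zscan4, 37.7 and 35.4 in KD control and 33.2 and 30.3 in KD Zscan4. Ddit4 was at 166 and 159 CPM in OE control, 44.3 and 47.9 in OE Zscan4, 54.6 and 62.4 in KD control and 47.6 and 42.3 in KD Zscan4, so for both of these OE control lay above all other libraries. The Y-linked genes had another pattern: Eif2s3y was at 56.0 and 55.1 CPM in OE control, 0.154 and 0.626 in OE Zscan4, 34.9 and 30.7 in KD control and 22.7 and 27.8 in KD Zscan4, low in OE Zscan4 alone, and Ddx3y at 12.3 and 18.2 CPM in OE control, 0.103 and 0.223 in OE Zscan4, 21.7 and 20.1 in KD control and 0.153 and 0.500 in KD Zscan4, low in both Zscan4 groups.

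**Figure D4:**
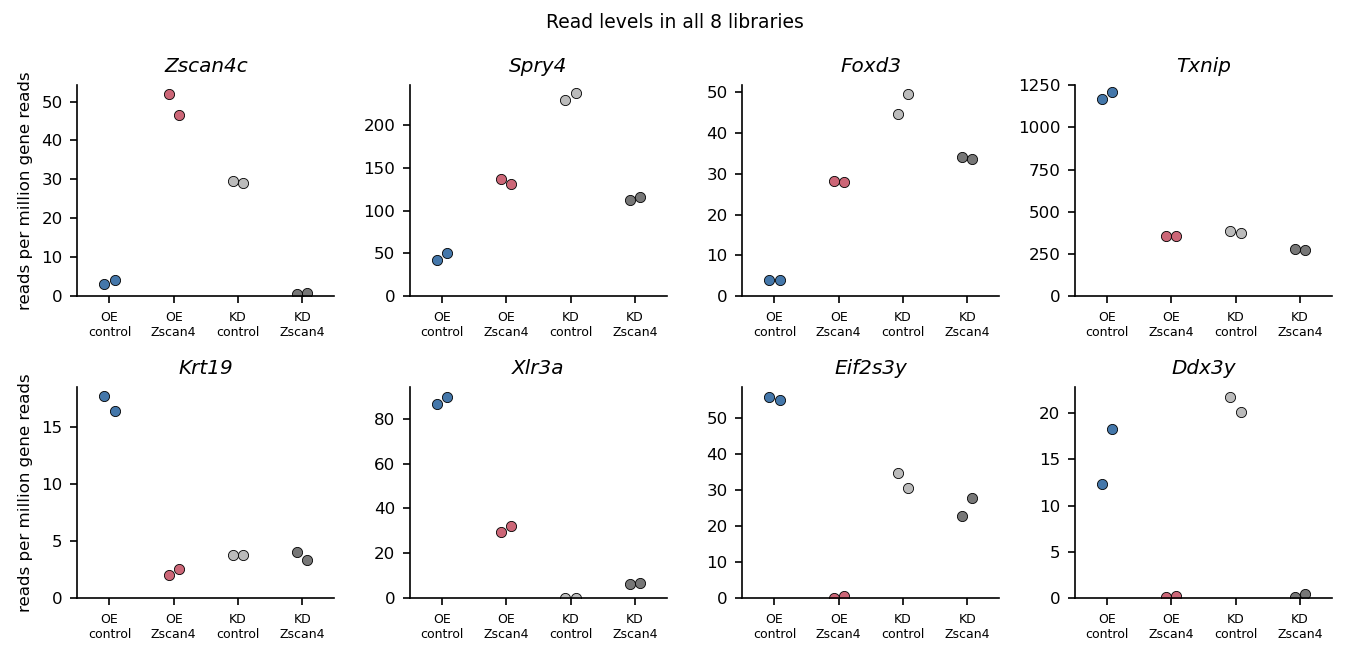
CPM over gene reads of 8 genes in all 8 libraries, 2 points per group, each panel with its own axis from 0. OE control is the lowest group for Spry4 (42.1 and 50.5) and Foxd3 and the highest for Txnip, Krt19 and Xlr3a, while Ddx3y is near 0 in both Zscan4 groups.

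Whether the overexpression effect differed from the knockdown effect was tested as a contrast of the 2 within-arm differences. It passed for 7787 of 17409 genes (44.7%), 3988 with a higher overexpression effect (22.9%) and 3799 with a lower one (21.8%). The 5 largest differences were all Zscan4 copies, led by Zscan4-ps3 at 10.26, SE 0.44, adjusted p = 4.7e-11. Genes that rose here and fell in the knockdown included Spry4 (knockdown -1.02, difference 2.70, SE 0.09, adjusted p = 5.1e-12), the receptor gene Epha2 (here 0.96, knockdown -1.47, difference 2.43, SE 0.08, adjusted p = 4.7e-12) and Rarg (knockdown -0.97, difference 2.30, SE 0.08, adjusted p = 1.0e-11). Rarg was at 83.6 and 96.1 CPM in OE control and 393 and 413 in KD control. Its levels in OE Zscan4 (204.5 and 204) and KD Zscan4 (207 and 203) lay between. Epha2 was at 55.2 and 59.4 CPM in OE control and 281 and 297 in KD control. Its levels in OE Zscan4 (105 and 97.7) and KD Zscan4 (103 and 105) also lay between. Genes that fell here and rose in the knockdown included Cldn18 (knockdown 3.36, difference -5.63, SE 0.73, adjusted p = 1.3e-05) and Lipg (knockdown 1.59, difference -3.78, SE 0.40, adjusted p = 1.6e-06). Cldn18 was at 1.62 and 1.67 CPM in OE control but at 0.046 and 0 in KD control. Its knockdown rise and its contrast thus rest on almost no reads in KD control. Lipg was at 7.53 and 6.78 CPM in OE control and 0.505 and 0.345 in KD control. Its levels in OE Zscan4 (1.54 and 1.25) and KD Zscan4 (1.23 and 1.501) lay between. Those of Cldn18 in OE Zscan4 (0.205 and 0.357) and KD Zscan4 (0.562 and 0.801) did too. Cubn and Srgn fell in both arms and less here, with differences of 4.48, SE 0.43, adjusted p = 6.0e-07 and 3.83, SE 0.47, adjusted p = 8.1e-06. For Ddx3y (-0.12, SE 0.54, adjusted p = 0.88) and Dll1 (0.48, SE 0.31, adjusted p = 0.22), which fell in both arms, the contrast did not pass, which does not show that the effects are alike.

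Repeats were tested by name, all copies of a repeat summed, with the spread estimated over all names together. Of 834 names 32 passed (3.84%), 21 upward (2.52%) and 11 downward (1.32%). The groups did not overlap for 312 of the 834 names (37.4%), so a lack of overlap is common among repeats too. The 2 OE control libraries differed in their repeat content, with repeat reads at 1.78% and 2.37% of gene reads, against 2.11% and 2.10% in OE Zscan4. The median repeat deviated by -0.17 and 0.17 in OE control. The balance of directions turned with the OE control library left out: 44 names rose and 145 fell without replicate 1, and 165 rose and 23 fell without replicate 2. With factors computed over repeat names themselves, 103 names passed with TMM, 74 upward (8.87%) and 29 downward (3.48%), and 100 with median-of-ratios, and all 32 names above were among them in both cases.

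LINE-1 elements are retrotransposons that encode their own reverse transcriptase, and the L1Md names cover their young mouse subfamilies. Of 6 measured L1Md names 5 rose. L1Md_A was at 871 and 1117 in OE control and 4135 and 4072 in OE Zscan4 (log2 fold change 2.06, SE 0.21, adjusted p = 4.2e-20). L1Md_T was at 1119.8 and 1367 in OE control and 3374 and 3241 in OE Zscan4 (log2 fold change 1.42, SE 0.21, adjusted p = 1.8e-09), and L1Md_Gf at 19.2 and 36.9 in OE control and 84.0 and 79.7 in OE Zscan4 (log2 fold change 1.58, SE 0.30, adjusted p = 9.3e-06). The groups did not overlap for any of these, and the spread between OE control libraries was wider than that between OE Zscan4 libraries. L1Md_F3 (1.02) and L1Md_F (0.82) rose, and L1Md_F2 did not pass (0.45). The rise of L1Md_A kept its call in every setting, while L1Md_T and L1Md_Gf lost theirs without OE Zscan4 replicate 1 (1.39 and 1.55) or replicate 2 (1.45 and 1.62), as did L1Md_F3 (1.04 and 1.00) and L1Md_F (0.68 and 0.96).

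The endogenous retrovirus of the 2-cell stage, MERVL, rose, with MERVL-int at 804 and 891 in OE control and 7862 and 7256 in OE Zscan4 (log2 fold change 3.16, SE 0.21, adjusted p = 6.8e-46) and its long terminal repeat MT2_Mm at 303 and 344 in OE control and 1758 and 1771 in OE Zscan4 (log2 fold change 2.45, SE 0.21, adjusted p = 4.3e-27). Its older relatives did not pass: MERVL_2A-int stood at 0.29, MT2A at -0.23 and MT2B at -0.01. ERVB4_2-LTR_MM was at 4.79 and 2.05 in OE control and 37.2 and 42.2 in OE Zscan4, and RLTR6B_Mm at 56.5 and 67.7 in OE control and 251 and 243 in OE Zscan4 (log2 fold change 1.98, SE 0.25, adjusted p = 5.6e-13). These 4 rises kept their calls in every setting. Among rises of low or middling level, X7C_LINE (1.85), MER89 (1.19), RLTR30D_RN (1.14), Tigger17c (1.11) and RNERVK23-int (1.04) lost theirs with either OE Zscan4 library left out.

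IAP elements, another family of endogenous retroviruses, mostly did not pass. Of 22 measured IAP names 2 did, IAPEy-int at 204 and 255 in OE control and 22.3 and 26.3 in OE Zscan4 (log2 fold change -3.18, SE 0.27, adjusted p = 2.1e-28) and IAPEY_LTR at 90.0 and 88.2 in OE control and 27.7 and 27.2 in OE Zscan4 (log2 fold change -1.66, SE 0.29, adjusted p = 1.5e-06). IAPEY elements are known from chromosome Y, where 5 of 8 genes fell. The part of chromosome Y in these falls was not tested. The abundant IAPEz-int stood at -0.37 and did not pass. LTR53 was at 67.1 and 87.2 in OE control and 17.02 and 17.8 in OE Zscan4 (log2 fold change -2.07, SE 0.32, adjusted p = 1.3e-08) and RLTR34B_MM at 435 and 410.3 in OE control and 178 and 150.1 in OE Zscan4 (log2 fold change -1.37, SE 0.23, adjusted p = 2.5e-07). The call of RLTR34B_MM was lost without OE Zscan4 replicate 1 (-1.49) or replicate 2 (-1.24), as were, without either of these libraries, those of RLTR27, RLTR44-int, MTEb-int, RLTR1B-int, L1ME2, MMERVK10C-int and RLTR17 (also with the replicate block), which stood between -1.19 and -0.73.

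**Figure D5:**
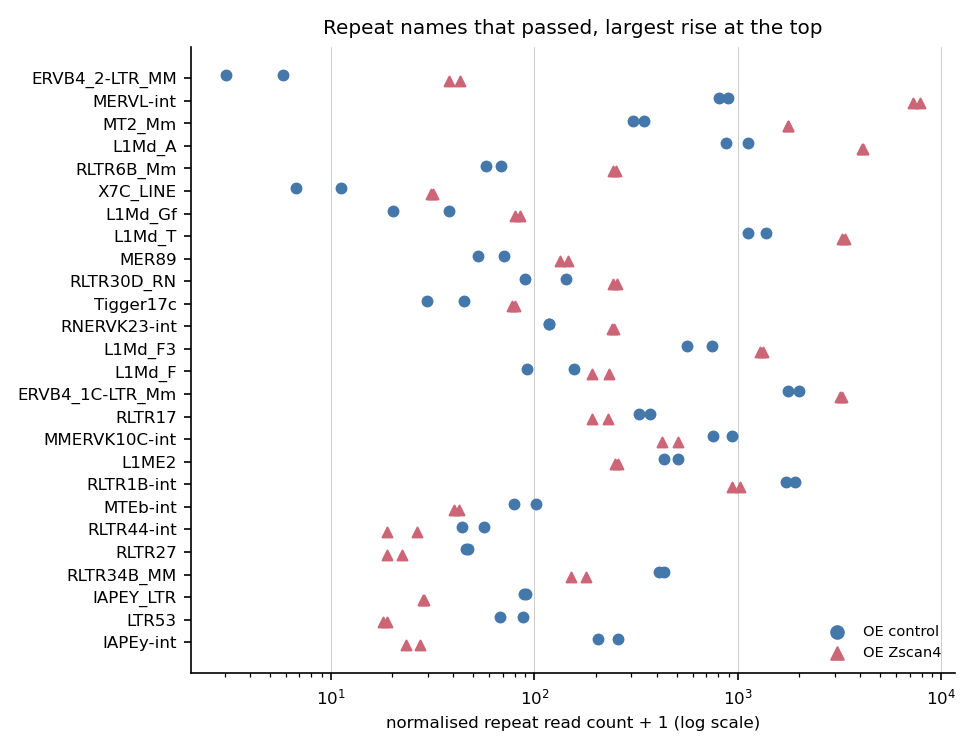
Normalised repeat read counts plus 1, on a log axis, of 26 repeat names that passed, ordered by log2 fold change, with circles for the 2 OE control libraries and triangles for the 2 OE Zscan4 libraries. The circles and triangles do not overlap for any name drawn, which holds for 37.4% of all 834 names. MERVL-int lies between 804 and 891 in OE control and between 7256 and 7862 in OE Zscan4.

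ZSCAN4 has been reported to bind the sequence TGCACAC, and its presence was counted in RefSeq promoter windows (GRCm38.p6) from 250 bases before to 50 after each start, on either strand, so also as GTGTGCA. Among windows of genes with at least 2-fold rises it was found in 20 of 342 (5.85%), among those with at least 2-fold falls in 64 of 1072 (5.97%), and among all windows of genes tested in 619 of 15452 (4.01%). Many genes had no window and were not scanned. Windows covered 291 of the 588 genes with such rises, 852 of the 1259 with such falls and 12165 of all 18292 genes. The difference between these shares was not tested, and a match is no evidence of binding. The 2 named genes with the largest rise and the largest fall among those holding it are shown, with the 250 bases before the start, 5′ to 3′ on the strand of the gene, and the match in capitals.
Abcb5, chr12:118966422-118966671, minus strand, log2 fold change 3.996: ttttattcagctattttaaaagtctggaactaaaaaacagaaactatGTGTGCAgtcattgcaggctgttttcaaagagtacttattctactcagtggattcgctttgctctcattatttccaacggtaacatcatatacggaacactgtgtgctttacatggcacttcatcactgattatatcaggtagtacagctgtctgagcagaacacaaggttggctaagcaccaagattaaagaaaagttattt
Mt4, chr8:94136954-94137203, plus strand, log2 fold change -4.11: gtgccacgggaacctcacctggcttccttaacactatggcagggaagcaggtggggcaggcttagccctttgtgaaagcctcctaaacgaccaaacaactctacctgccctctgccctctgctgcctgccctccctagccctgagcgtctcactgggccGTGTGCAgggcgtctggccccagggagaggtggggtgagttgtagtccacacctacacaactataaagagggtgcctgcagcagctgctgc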

How the data were processed

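RNA was sequenced as mRNA libraries made with 11 PCR cycles. Per the submitters' processing notes, cutadapt, HISAT2, featureCounts and DESeq2 were used with mm10. Versions, and whether counting used strand, are not given in the sources used here, so overlapping and antisense genes are uncertain. The deposited tables hold a signal, the authors' counts per gene or repeat name divided by a size factor for each library. Their steps gave whole reads back for 100% of values within 0.01, totalling 17.98 to 22.38 M gene reads and 0.36 to 0.47 M repeat reads per library. Precision from depth covers counting error only. Gene positions came from GENCODE M21, which matched 18259 of 18292 identifiers.

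Main calls used limma 3.58.1 (R 4.3.3, trended variance) on log2(value + 1), in the 4 overexpression libraries without a block, with Benjamini-Hochberg adjustment over all genes or repeat names. Adjusted p-values in the text are from limma unless another tool is named. The difference from the knockdown effect was fitted over all 8 libraries. Alternatives were pseudocounts of 0.25 and 10, TMM scaling, a mean of at least 20, the replicate block, edgeR 4.0.16 and DESeq2 1.42.0 on recovered reads, each library left out, centring or dropping chromosome 11, and, added after seeing the data, dropping chromosomes 11, X and Y. On simulated data for the gene comparison over 18292 genes, 81 of 100 2-fold and 93 of 100 4-fold changes were recovered with 5.43% false calls, and for 834 repeat names 7 of 10, 9 of 10 and 5.88%. Only those genes or names were changed in the simulation, all shared 1 common spread, and chromosome 11 was not shifted. Far more genes were called in the real data, so these rates cannot be taken as the error rates of the calls here.

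Members and lists were chosen with earlier results of these data known. Named were Zscan4 copies, the 20 largest rises and falls whose groups did not overlap and whose higher mean was at least 20, up to 4 called genes per list by fold, the 10 largest differences in mean, the 6 chromosome 11 genes farthest above and below its median, genes of runs, the 15 largest repeat rises and falls, and the 5 largest differences from the knockdown. Further list members and repeat names were chosen after their values were seen. Read ratios carry exact 95% counting intervals. Some named genes are not reported here.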

Additional observations from a re-analysis of the deposited data

How the results depend on the processing

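The number of called genes ranged from 5638 with DESeq2 to 8247 with a pseudocount of 10, and edgeR called 8185. DESeq2 shared 5628 calls in the same direction with limma. With the replicate number as a block 8188 genes, 26 repeat names and 7388 differences from the knockdown effect were called. Deviations of same-numbered libraries had a correlation of -0.04 over 14783 genes, so the pairs share only a number. Rises were 54.0% of calls after centring chromosome 11 and 50.2% before.

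Repeat calls depended on scaling and on single libraries. Instead of 32 names, 103 passed with TMM and 100 with median-of-ratios over repeat names, and between 8 and 189 with 1 library left out, where a lone library is assumed to vary like the other group. Neighbouring runs numbered 12 with a pseudocount of 10, 12 with DESeq2, and 15 to 20 with 1 library left out. Without chromosome 11, 4 medians near 0 changed sign: Fox, Sox, Gata and T-box factors to 0.0347, unfolded protein response genes to 0.0405, cell death genes to -0.0015 and all genes to 0.0262. Of 359 named genes 274 kept their call in every alternative that gave them an adjusted p-value, and of 26 named repeats 8 did. An alternative that left a gene or repeat out, such as a mean of at least 20 or a dropped chromosome, was not counted against it. Runs were not recomputed for a mean of at least 20 or without chromosome 11. With 2 libraries a group, low genes such as Hoxa7 rest on few reads.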
